A study of Mus musculus with 19 samples.

Results

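The muscle actins and myosin light chains described here are 10 mouse genes, taken by symbol from the gene-name columns of the RNA-Seq tables. They are the actins *Acta1*, *Actc1*, *Acta2* and *Actg2*, the essential light chains *Myl1*, *Myl3* and *Myl4*, and the regulatory light chains *Mylpf*, *Myl2* and *Myl7*. All 10 were listed among the 55573 genes of a table of 7 tissues and among the 55487 genes of a brown adipose tissue (BAT) table. Of the 13756 genes in an inguinal white adipose tissue (iWAT) table, 6 were members, and *Actc1*, *Myl2*, *Myl3* and *Myl7* had no row there.

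The 7 tissues came from wild-type (WT) C57BL/6J mice on chow, 1 library a tissue: tibialis anterior muscle (TA), heart, small intestine, brain, liver, and white and brown adipose. The BAT and iWAT tables each held 3 WT and 3 MCK-Musclin libraries from 5-month-old male mice fed chow and kept at 8 °C for 1 week. MCK-Musclin mice carry the coding sequence of the myokine Musclin (gene *Ostn*) under the promoter of muscle creatine kinase, which is active in skeletal muscle and heart. Founder lines were backcrossed to C57BL/6J, and the line used for these libraries is not stated in the sources used here. Both genotypes were cold-exposed, so these tables compare genotype and not temperature.

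Striated muscle contracts when myosin heads pull on thin filaments of actin. Each myosin heavy chain carries an essential and a regulatory light chain on its neck, and different fibres use different genes for the same place. In smooth muscle of vessels and gut the thin filament is built from *Acta2* and *Actg2*, and contraction is switched on by phosphorylation of a regulatory light chain.

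All 10 genes are protein-coding, and their positions are those of the GENCODE annotation of GRCm38. Among the actins, *Acta1* lies on the minus strand at chr8:123891769-123894751, *Actc1* on the minus strand at chr2:114047282-114053548, *Acta2* on the minus strand at chr19:34241090-34255590 and *Actg2* on the minus strand at chr6:83512905-83536265. Of the essential light chains, *Myl1* lies on the minus strand at chr1:66924295-66945404, *Myl3* on the plus strand at chr9:110741861-110769798 and *Myl4* on the plus strand at chr11:104550663-104595753. Of the regulatory light chains, *Mylpf* lies on the plus strand at chr7:127208890-127214298, *Myl2* on the plus strand at chr5:122100951-122113472 and *Myl7* on the minus strand at chr11:5896637-5898782.

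The coding sequences, taken as the longest open reading frame of each gene's transcripts, were compared base by base. How reads were placed between these genes was not tested. *Acta1* matched *Actc1* at 86.2% of aligned bases, *Acta2* at 85.4% and the cytoplasmic actin *Actb* at 85.3%. Between light chains identity was lower, at 78.4% for *Myl3* with *Myl4*, 72.1% for *Myl1* with *Myl3* and 69.6% for *Mylpf* with *Myl2*. Of the distinct 50-base stretches in the transcripts of *Acta1*, 2.02% also occur in another gene, and none do for *Actc1*, *Actg2*, *Mylpf* and *Myl7*. *Myl1* is the exception, with 11.7% of its stretches in the pseudogene *Mylf-ps*. Reads were aligned without strand, and 4.65% of the exonic bases of *Myl3* overlap *Pth1r* and 3.08% of those of *Myl2* overlap *Ccdc63*, both on the opposite strand.

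Serum response factor binds the CArG box, a motif with C at one end, G at the other and A or T between. The RefSeq table for GRCm38.p6 holds windows from 250 bases before to 50 bases after the start site for 9 members, all but *Actg2*. A perfect CArG box is present in the windows of 4 members, *Acta1*, *Actc1*, *Myl3* and *Myl7*, and in 1.63% of the 32851 windows in the table. The 4 stretches are shown because they hold the same motif in members whose tissue patterns were not all alike. *Acta1* was highest in TA, while *Actc1* and *Myl3* were both highest in heart. The box is in capitals, and the strand is that of the gene.
Acta1, chr8:123894814-123894883, minus strand: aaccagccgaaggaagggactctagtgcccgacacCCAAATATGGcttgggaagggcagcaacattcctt
Actc1, chr2:114052888-114052957, minus strand: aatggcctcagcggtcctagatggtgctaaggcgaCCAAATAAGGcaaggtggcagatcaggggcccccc
Myl3, chr9:110763558-110763627, plus strand: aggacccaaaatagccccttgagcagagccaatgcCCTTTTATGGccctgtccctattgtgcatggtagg
Myl7, chr11:5898809-5898878, minus strand: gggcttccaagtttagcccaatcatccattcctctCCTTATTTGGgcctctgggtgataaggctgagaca
The boxes start 73, 47, 85 and 61 bases before the start site in these genes. The E-box CANNTG, bound by myogenic factors and others, is in the windows of 8 of the 9 members, all but *Myl4*, and in 72.3% of all windows. The letters TATAAA on either strand are in the windows of *Acta1*, *Actc1*, *Myl1* and *Myl2* and in 13.6% of all windows. The MEF2 site, matched by sequence on both strands, is in none of the 9 and in 3.19% of all windows. The *Myl2* windows have start sites at chr5:122092724 and chr5:122093189. Both lie upstream of the annotated start of *Myl2* at chr5:122100951, so the bases around that start were not searched. The windows of *Actc1*, *Myl1*, *Mylpf* and *Myl3* lie within the annotated genes and do not reach the outermost start, which was not searched either. For *Myl3* the window's start site is at chr9:110763678, against an annotated start at chr9:110741861. These matches describe the letters only.

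Values are FPKM as deposited, which scale the fragments of a gene by its exon length and by the library's mapped total. They are per length, so levels of different genes in a library can be set side by side. The 10 genes together made up 3.71% of the summed FPKM in TA, 1.30% in heart and between 8.45e-04% and 0.0462% in the other tissues. In the cold-exposed fat libraries they made up between 0.0198% and 0.198%. The FPKM of a library summed to between 364710 and 720852, and read totals are unknown. Steps between low values gave relative depths of 0.892 to 1.11 for BAT libraries and 0.917 to 1.05 for tissues, each read from at most 2.37% of the low genes, and none for iWAT.

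The labelled tissues were checked against marker lists. The 18 fast skeletal muscle genes summed to 135311 FPKM in TA, 11 cardiac genes other than members summed to 31134 FPKM in heart, and 9 adipocyte genes summed to 14921 FPKM in white and 6360 FPKM in brown adipose. *Ostn* was at 7.43 FPKM in WT TA. In BAT it was listed at 0 in the 3 WT libraries and stood at 37.9, 31.6 and 30.3 FPKM in MCK-Musclin 1, 2 and 3. In iWAT it was at 0, 0 and 0.225 FPKM in WT and at 0, 5.17 and 4.21 FPKM in MCK-Musclin. The iWAT library labelled MCK-Musclin 1 thus had no *Ostn* reads to check its label. It was also, with iWAT WT 1, nearly free of fast muscle transcripts, as given below.

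The skeletal muscle members were abundant in TA and low elsewhere. *Acta1*, the skeletal alpha-actin, was at 11741 FPKM in TA, 136 in heart, 63.2 in brown adipose, 40.1 in white adipose, 8.56 in brain, 3.20 in small intestine and 0.286 in liver. TA was 86.2 times the next tissue. *Myl1*, the fast essential light chain, was at 6227 FPKM in TA, 57.5 in brown and 50.7 in white adipose, 12.5 in heart, 4.03 in brain, 0.591 in small intestine and 0.0515 in liver. *Mylpf*, the fast regulatory light chain, was at 3479 FPKM in TA, 17.2 in brown and 9.02 in white adipose, and between 0.351 in heart and 4.06 in small intestine in the rest. After TA, all 3 genes had their next highest level in heart or brown adipose. The genes nevertheless parted in heart, where *Acta1* was second in order and *Mylpf* was last of the 7 tissues.

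The cardiac members were abundant in heart. *Actc1*, the cardiac alpha-actin, was at 2402 FPKM in heart and 50.2 in TA. It was at 0.456 FPKM in white and 0.254 in brown adipose and listed at 0 in brain, liver and small intestine. *Myl3*, the essential light chain of ventricle and slow fibres, was at 4536 FPKM in heart, 68.4 in TA, 8.32 in white adipose, 1.84 in brown adipose and at most 1.17 in the others. *Myl2*, the regulatory light chain of ventricle and slow fibres, was at 1656 FPKM in heart, 12.1 in TA, 2.58 in brown adipose, 2.30 in white adipose and 1.06 in brain. The ratio of heart to the next tissue was 47.9 for *Actc1*, 66.3 for *Myl3* and 137 for *Myl2*.

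Both atrial light chains were low in heart. *Myl7*, the atrial regulatory light chain, was at 3.52 FPKM in heart and 3.54 in small intestine and listed at 0 in the other 5 tissues. *Myl4*, the essential light chain of atrium and embryonic muscle, was at 12.7 FPKM in heart, 8.93 in brain, 8.59 in TA and in white adipose, 2.56 in brown adipose, 0.608 in liver and 0.402 in small intestine. Of other atrial genes, *Nppa*, the natriuretic peptide of atrium, was at 95.1 FPKM in heart, *Sln* at 0.645, and *Bmp10* was listed at 0. The ventricular and atrial parts in the heart sample are not stated in the sources used here. The order of *Myl7* between heart and small intestine turned under median-ratio scaling, and *Myl4* was no longer highest in heart with FPKM rescaled to TPM.

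The smooth muscle actins had another order. *Acta2*, the vascular smooth muscle actin, was at 79.1 FPKM in small intestine, 69.7 in white adipose, 13.9 in heart, 12.5 in brown adipose, 9.10 in TA, 4.30 in brain and 1.77 in liver. *Actg2*, the enteric smooth muscle actin, was at 61.1 FPKM in small intestine, 5.12 in white adipose and 0.607 in brown adipose and listed at 0 in the other 4. The ratio of *Acta2* to *Actg2* was 1.30 in small intestine, 13.6 in white adipose and 20.6 in brown adipose. With FPKM rescaled to TPM, *Acta2* was highest in a tissue other than small intestine. With 1 library per tissue, no difference between tissues has a replicate check.

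**Figure D1:**
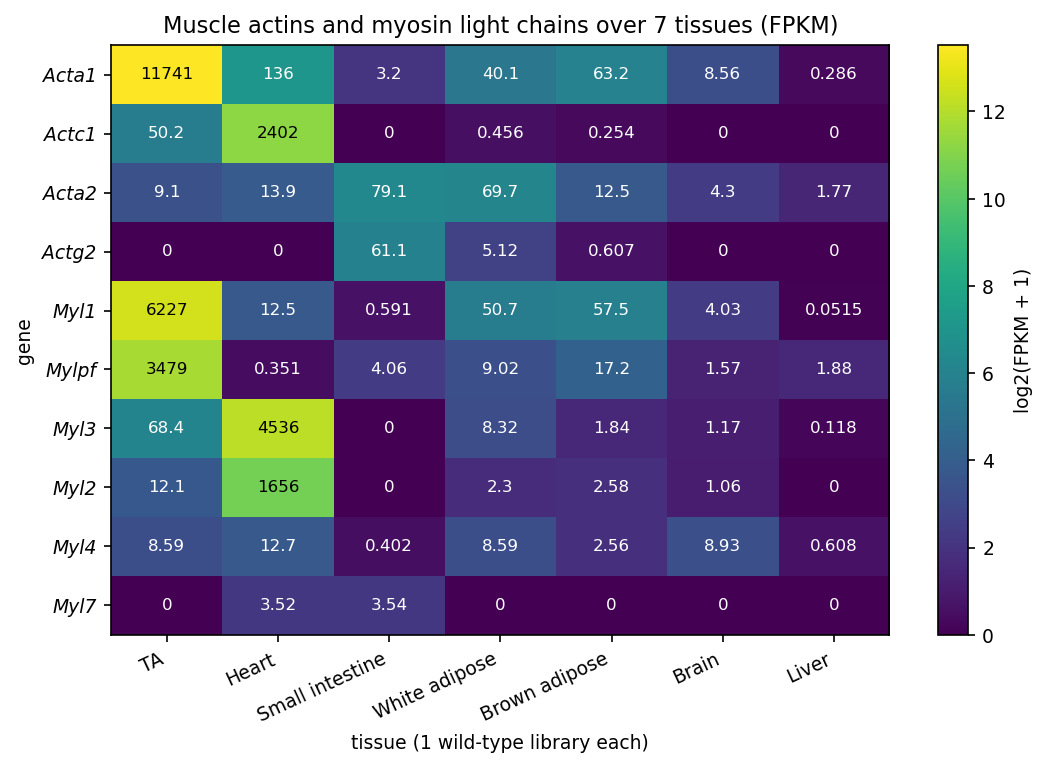
FPKM of the 10 genes (rows) in 7 WT tissues (columns, 1 library each), with the value in each cell and the colour showing log2(FPKM + 1). *Acta1*, *Myl1* and *Mylpf* are brightest in TA, *Actc1*, *Myl3* and *Myl2* in heart, and *Myl7* stays at or below 3.54 FPKM throughout.

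The leading member of a family differed between tissues. Of the summed FPKM of the 4 actins, *Acta1* held 99.5% in TA, *Actc1* held 94.1% in heart, and *Acta2* and *Actg2* held 55.2% and 42.6% in small intestine. The white adipose library had 60.4% *Acta2* and 34.7% *Acta1*, whereas the brown adipose library had 16.3% *Acta2* and 82.5% *Acta1*. This split was not stable between white fat replicates. Of the actins listed in cold-exposed iWAT, *Acta1* held 3.55%, 41.2% and 85.9% in WT 1, 2 and 3. In cold-exposed BAT it held 88.6%, 94.4% and 89.7% in WT 1, 2 and 3. Among essential light chains *Myl1* held 98.8% in TA and *Myl3* held 99.4% in heart. *Myl1* also led in white adipose with 75.0% and in brown adipose with 92.9%. The 18 fast skeletal muscle genes summed to 373.9 FPKM in this white and 536.4 FPKM in this brown adipose library, against 135311 FPKM in TA. The part of skeletal muscle tissue in the *Acta1* and *Myl1* shares of fat was not tested. *Myl4* led in brain with 63.2%, where the whole family summed to 14.1 FPKM. Among regulatory light chains *Mylpf* held 99.7% in TA and *Myl2* held 99.8% in heart.

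**Figure D2:**
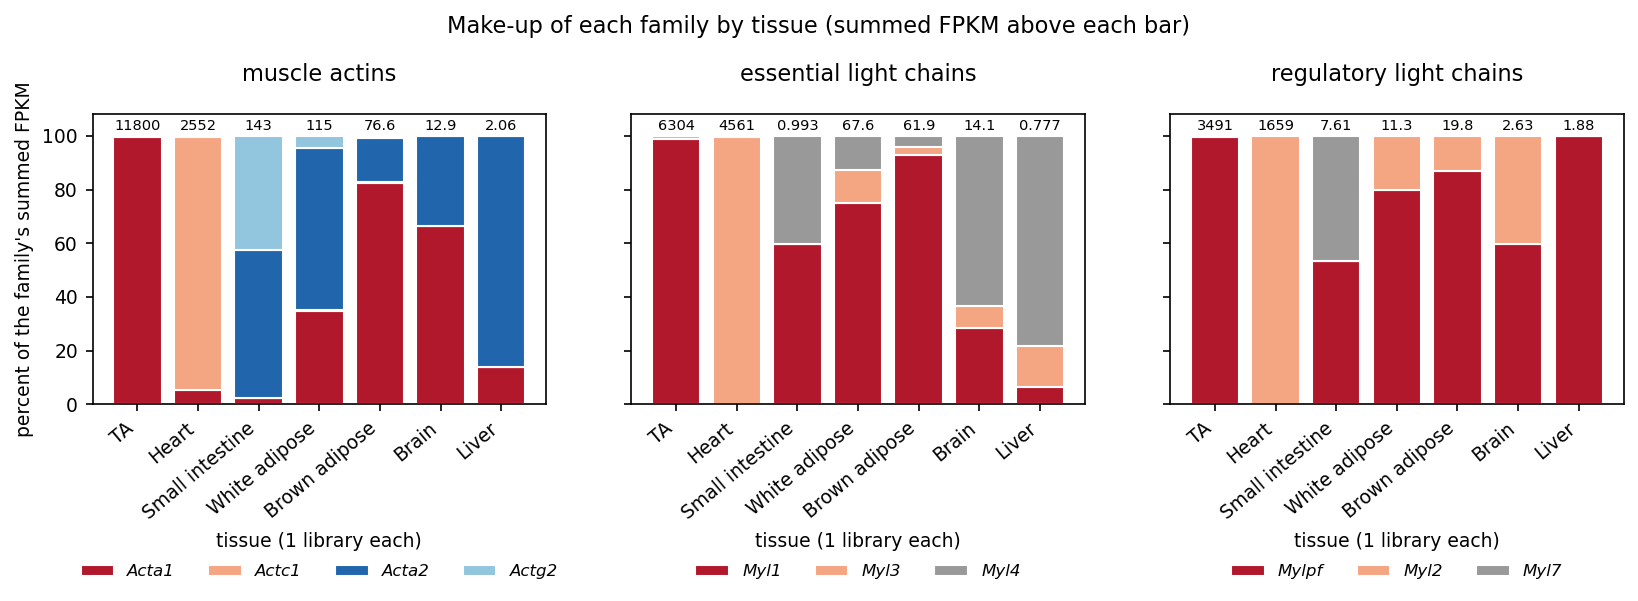
Share of each family's summed FPKM (y axis, percent) held by each member in the 7 WT tissues (x axis, 1 library each), with the summed FPKM above each bar. TA and heart are each dominated by a single, different member in all 3 families, and white adipose holds 60.4% *Acta2* among actins.

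Over the 7 tissues, the genes most like each member by Pearson's r of log2(FPKM + 1), among 10413 genes with a highest FPKM of at least 10, were taken as a description of 7 single libraries that share no replicate. For *Acta1* they were *E2f6* (0.9851), the calcium-binding protein gene *Casq1* (0.9744) and the Z-disc gene *Myot* (0.9693). For *Myl1* they were *Fhl3* (0.9858), *Mapk12* (0.9853) and the fast troponin gene *Tnni2* (0.9813). For *Mylpf* they were the Z-disc gene *Myoz1* (0.9872), *Smtnl1* (0.9858) and the fast myosin heavy chain gene *Myh1* (0.9829). For *Actc1* they were *Gm49540* (0.9987), the cardiac myosin heavy chain gene *Myh6* (0.9959) and *Adprhl1* (0.9954).

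*Myl3* was most like *Myoz2* (0.9926), its fellow member *Myl2* (0.9799) and the thin-filament gene *Lmod2* (0.9791). *Myl2* was most like the calcium-binding protein gene *Casq2* (0.9875), *Myoz2* (0.9853) and *Ankrd1* (0.9813). *Acta2* was most like *Rbbp7* (0.9844), the smooth muscle gene *Tagln* (0.9838) and *Pmp22* (0.9743). *Actg2* was most like *Ighv2-9-1* (0.9999), *Kcnn4* (0.9987) and *Ciita* (0.9987), so genes with a high value in small intestine led its list. *Myl4* was most like *Tmtc1* (0.9652), *Sgcb* (0.9630) and *Cryab* (0.9548), and *Myl7* was most like *Lmo7* (0.9687), *Bsg* (0.9504) and *Kcnq1* (0.9469).

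In cold-exposed BAT, the comparison asks whether the transgene, expressed from a muscle promoter, goes with a change in these genes. *Acta1* was at 46.3, 82.3 and 51.9 FPKM in WT and at 223, 88.2 and 106 FPKM in MCK-Musclin. The groups did not overlap, and MCK-Musclin 2 was close above the highest WT library. *Myl1* was at 63.4, 76.3 and 60.8 FPKM in WT and at 172, 87.3 and 86.4 FPKM in MCK-Musclin, again without overlap. *Acta1* rose by 1.12 ± 0.36 on the log2(FPKM + 1) scale (SE, n = 3 per group, limma p = 0.0151, exact permutation p = 0.1) and *Myl1* rose by 0.71 ± 0.26 (limma p = 0.0279, exact permutation p = 0.1). Both passed the cutoff of the study, an unadjusted p under 0.05 with a log2 change over 0.3 in BAT, and neither passed adjustment over 10893 genes (limma, Benjamini-Hochberg adjusted p = 0.968 for both). The exact permutation test was two-sided on the difference in mean log2(FPKM + 1), and 0.1 is the smallest p that 3 against 3 can give.

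The other members did not pass in BAT. *Mylpf* was at 27.6, 22.6 and 19.1 FPKM in WT and at 64.6, 25.8 and 32.2 FPKM in MCK-Musclin, with a difference of 0.70 ± 0.31 (SE, limma p = 0.0581, exact permutation p = 0.2). MCK-Musclin 2 lay within the WT range. *Myl3* was at 3.68, 3.43 and 2.52 FPKM in WT and at 9.12, 7.27 and 2.53 FPKM in MCK-Musclin, a difference of 0.67 ± 0.37 (limma p = 0.106, exact permutation p = 0.3). *Myl2* was at 1.12, 2.25 and 0.981 FPKM in WT and at 12.3, 5.89 and 0.771 FPKM in MCK-Musclin, a difference of 1.19 ± 0.66 (limma p = 0.11, exact permutation p = 0.4). In both slow light chains, MCK-Musclin 1 and 2 stood above all WT libraries and MCK-Musclin 3 stood at their low end.

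*Acta2* was at 5.53, 4.70 and 5.41 FPKM in WT and at 4.08, 3.46 and 5.96 FPKM in MCK-Musclin, a difference of -0.20 ± 0.18 (SE, limma p = 0.292, exact permutation p = 0.4). *Myl4* was at 1.28, 3.08 and 1.63 FPKM in WT and at 1.65, 3.06 and 1.43 FPKM in MCK-Musclin, a difference of 0.03 ± 0.27 (limma p = 0.913, exact permutation p = 0.8). The interval of the *Myl4* difference ran from -0.61 to 0.67. *Actc1* did not exceed 0.232 FPKM and *Actg2* did not exceed 0.441 FPKM in any BAT library, and *Myl7* was listed at 0 in all 6, so these 3 members fell under the filter of a mean FPKM of 1.

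**Figure D3:**
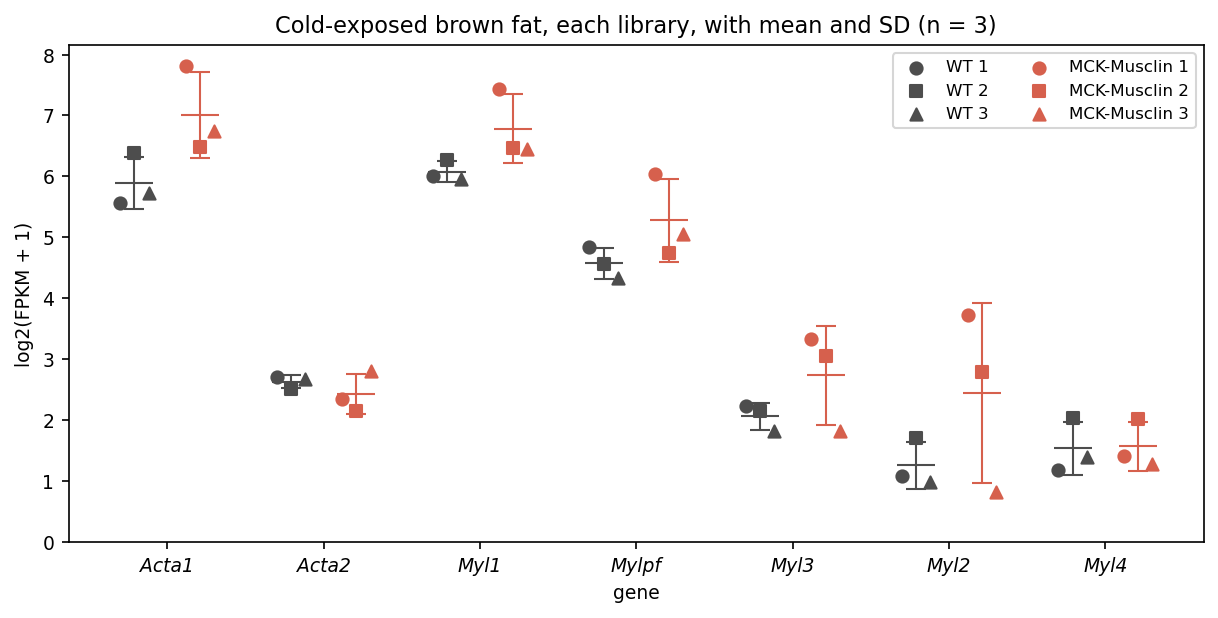
Levels of 7 members in cold-exposed BAT as log2(FPKM + 1) (y axis), each point a library, with the horizontal line and bar giving the mean and SD of 3 WT or 3 MCK-Musclin libraries. *Acta1* and *Myl1* do not overlap between groups, and MCK-Musclin 3 drops to the WT level in *Myl3* and *Myl2*.

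Of the 7 members tested in BAT, 2 passed upward, against 1.85% of the 10893 genes tested, and 0 passed downward, against 2.15%. The groups did not overlap in the same 2 members, against 10% of all genes tested. At an adjusted p under 0.05, 0 members and 0.00918% of genes passed. The median log2 change of the 7 members was 0.70, and that of all genes tested was -0.008. These figures describe members that passed a filter on their level.

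Leaving out single libraries moved the count of members past the cutoff between 0 and 5. Without WT 1 neither *Acta1* (0.95) nor *Myl1* (0.67) passed, and without WT 3 *Myl1* did not (0.64). Without MCK-Musclin 1, the highest library, the differences were 0.72 for *Acta1* and 0.38 for *Myl1*, and both passed. Without MCK-Musclin 2, *Mylpf* passed with a difference of 0.97. Without MCK-Musclin 3, *Myl2* passed at 2.00, *Myl3* at 1.13 and *Acta2* at -0.38.

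Other fast muscle genes were higher in MCK-Musclin BAT too. Of 16 fast skeletal muscle genes tested, 15 passed upward, against 1.85% of all genes tested, and 0 downward. Their median log2 change was 0.85. Among them *Tnnc2*, the fast troponin C, was 0.99 ± 0.30 higher (SE, limma adjusted p = 0.968), *Tnnt3*, the fast troponin T, was 1.15 ± 0.32 higher (limma adjusted p = 0.929) and *Myh4*, the heavy chain of the fastest fibres, was 0.82 ± 0.24 higher (limma adjusted p = 0.929). The groups did not overlap in 7 of the 16 tested genes, *Myh4* included, against 10% of all genes tested. They overlapped in *Tnnc2* and *Tnnt3*. The 18 genes of the list summed to between 486.2 and 779.3 FPKM in WT and between 808.0 and 1736 FPKM in MCK-Musclin. None of the 18 was listed at 0 in a BAT library. Of 17 sarcomere frame genes, 8 passed upward, against 1.85% of all genes tested, with a median of 0.69. *Actn3* is in both lists and is counted in each. Over the 6 BAT libraries Pearson's r of *Acta1* was 0.98 with *Ckm* and 0.96 with *Tnnc2*. Such genes vary together, so these counts are not separate results. How much skeletal muscle tissue was in each fat sample was not measured, and the part of these transcripts in the *Acta1* and *Myl1* differences was not tested. In bulk tissue, fewer cells of a type and less RNA per cell cannot be told apart.

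Slow fibre genes varied between the MCK-Musclin libraries as well. Of 7 slow skeletal muscle genes tested, 7 were higher and 0 passed, with a median of 0.64. *Tnnt1*, the slow troponin T, was at 19.8, 20.5 and 6.77 FPKM in WT and at 71.5, 25.5 and 8.51 FPKM in MCK-Musclin. *Tnni1*, the slow troponin I, was at 1.56, 1.00 and 0.509 FPKM in WT and at 6.39, 3.06 and 0.131 FPKM in MCK-Musclin. MCK-Musclin 3 was the lowest of the 6 libraries in *Tnni1*, and WT 3 was the lowest in *Tnnt1*. *Mybpc1*, the slow myosin-binding protein C, was at 5.58, 9.38 and 6.26 FPKM in WT and at 28.6, 11 and 8.62 FPKM in MCK-Musclin, so MCK-Musclin 3 lay within the WT range and above WT 1 and WT 3. MCK-Musclin 3 had more *Acta1* than MCK-Musclin 2 and less *Myl2* and *Myl3*.

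Cardiac and smooth muscle genes were described beside them. Of 11 cardiac genes that are not members, 9 or 10 were under 1 FPKM in each BAT library, and *Nppa*, *Nppb*, *Bmp10* and *Mybpc3* were listed at 0 in all 6. The 1 tested gene, the kinase gene *Sbk2*, passed upward at 0.54 ± 0.20 (SE, limma adjusted p = 0.968). Of 11 smooth muscle genes 6 were lower and 5 higher with 0 past the cutoff, and their median was -0.02. Of 7 vascular genes tested, 7 were lower and 0 passed, with a median of -0.16. Of 9 adipocyte genes, 8 were lower, 1 was higher and 0 passed, with a median of -0.07.

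In cold-exposed iWAT the skeletal members varied more within WT than between genotypes. *Acta1* was at 1.11, 36.9 and 311 FPKM in WT 1, 2 and 3 and at 1.48, 15.2 and 10.2 FPKM in the libraries labelled MCK-Musclin 1, 2 and 3. *Mylpf* was at 3.61, 21.2 and 88.2 FPKM in WT and at 1.30, 10.5 and 8.53 FPKM in MCK-Musclin. Within WT alone, *Acta1* ran over the whole range seen in iWAT. *Myl1* was at 33.6, 73.8 and 269 FPKM in WT and at 31.1, 49.1 and 35 FPKM in MCK-Musclin. WT 3 was the highest of the 6 libraries in all 3 genes.

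The differences were -1.93 ± 1.67 for *Acta1* (SE, n = 3 per group, limma p = 0.283, exact permutation p = 0.5), -1.73 ± 1.07 for *Mylpf* (limma p = 0.147, exact permutation p = 0.4) and -1.20 ± 0.66 for *Myl1* (limma p = 0.111, exact permutation p = 0.3), all on the log2(FPKM + 1) scale. The interval of the *Acta1* difference ran from -5.84 to 1.98 and that of *Myl1* from -2.75 to 0.35. Without the library labelled MCK-Musclin 1 the differences were -1.12 for *Acta1*, -1.0 for *Mylpf* and -1.06 for *Myl1*, and 0 of the 6 members passed. Without WT 3 the differences were -0.22 for *Acta1*, -0.68 for *Mylpf* and -0.39 for *Myl1*. Without WT 1, the WT library with the least muscle transcript, all 3 passed the cutoff, at -3.83 for *Acta1*, -2.82 for *Mylpf* and -1.88 for *Myl1*.

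The smooth muscle actins varied less. *Acta2* was at 28.7, 49.0 and 48.9 FPKM in WT and at 36.9, 64.7 and 42.3 FPKM in MCK-Musclin, a difference of 0.18 ± 0.27 (SE, limma p = 0.519, exact permutation p = 0.6). *Actg2* was at 1.5, 3.60 and 2.20 FPKM in WT and at 2.32, 3.92 and 3.27 FPKM in MCK-Musclin, a difference of 0.31 ± 0.25 (limma p = 0.252, exact permutation p = 0.4). Without WT 2, *Actg2* passed at 0.54. *Myl4* was at 8.07, 10.6 and 7.95 FPKM in WT and at 5.70, 14.9 and 10.3 FPKM in MCK-Musclin, a difference of 0.12 ± 0.30 (limma p = 0.697, exact permutation p = 0.8). In all 3 genes the groups overlapped.

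**Figure D4:**
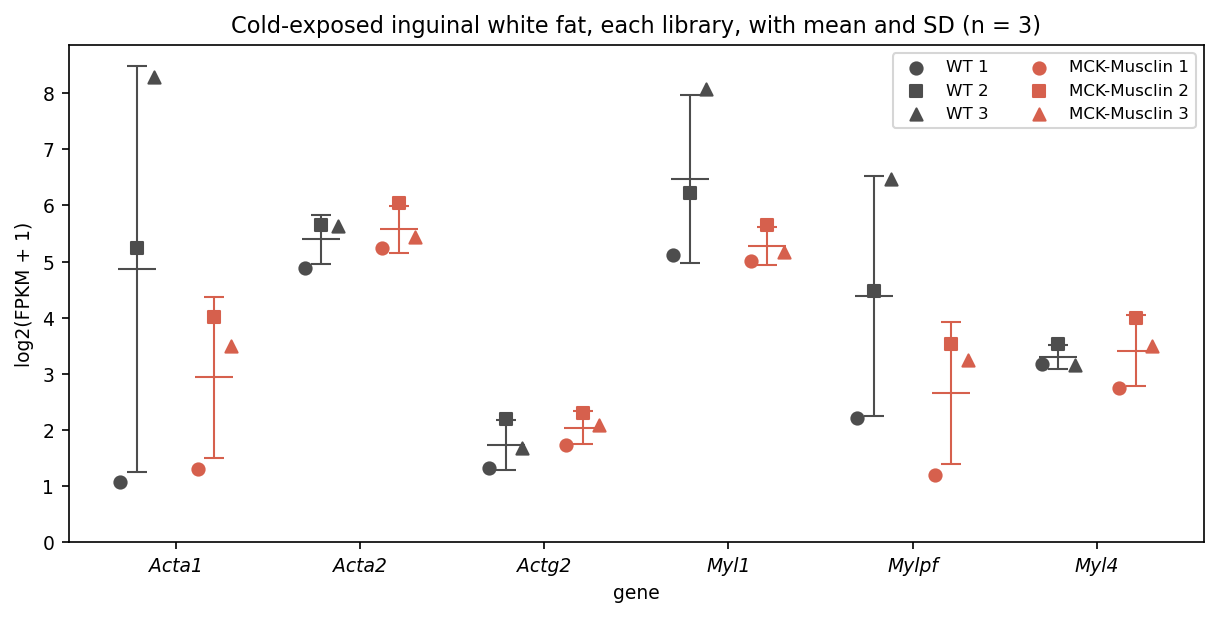
Levels of the 6 listed members in cold-exposed iWAT as log2(FPKM + 1) (y axis), each point a library, with the horizontal line and bar giving the mean and SD of 3 WT or 3 MCK-Musclin libraries. *Acta1* and *Mylpf* are lowest in WT 1 and the library labelled MCK-Musclin 1 and highest in WT 3, and the groups overlap in all 6 genes.

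Of the 6 members tested in iWAT, 0 passed the cutoff of the study (limma, unadjusted p under 0.05 with a log2 change beyond 0.5), and 0 had an unadjusted p under 0.05. Among all 12197 genes tested, 0.902% passed downward and 5.04% upward. The groups overlapped in all 6 members, and they did not overlap in 23.3% of the genes tested. At an adjusted p under 0.05, 0 members and 0% of genes passed. The median change of the 6 members was -0.54, with 3 lower and 3 higher, and that of all genes was 0.061.

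The fast skeletal muscle list followed the same libraries. Its 16 listed genes summed to 12.63, 833.5 and 4604 FPKM in WT 1, 2 and 3 and to 17.05, 155.8 and 193.6 FPKM in the libraries labelled MCK-Musclin 1, 2 and 3. All 16 were lower in MCK-Musclin by the fit, 0 passed, and their median was -2.10. Of these genes 12 were under 1 FPKM in WT 1 and 12 in the library labelled MCK-Musclin 1. All 15 sarcomere frame genes tested, *Actn3* again among them, were lower with 0 past the cutoff and a median of -1.02. Slow fibre genes had 2 lower and 3 higher of 5 tested, with 0 past the cutoff and a median of 0.01. The part of skeletal muscle transcripts in the member differences was not tested.

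Of 10 smooth muscle genes, 5 were lower, 5 were higher and 0 passed, with a median of -0.01. The adipocyte list had 9 of 9 lower and 0 past the cutoff, with a median of -0.14, and 7 vascular genes had a median of 0.00. The 3 myogenic and cardiac regulators tested in each tissue had medians of 0.21 in iWAT and 0.13 in BAT with 0 past the cutoff. Of the 7 cytoplasmic actins and other light chains tested in each tissue, 0 passed, with medians of -0.08 in iWAT and -0.11 in BAT. Of 3 cardiac genes tested in iWAT, 2 passed upward, against 5.04% of all genes tested. These were the troponin genes *Tnnt2* at 0.61 ± 0.17 (SE, limma adjusted p = 0.180) and *Tnni3* at 0.50 ± 0.17 (limma adjusted p = 0.221). *Tnnt2* was at 0.736 to 1.04 FPKM in WT and at 1.40 to 2.51 FPKM in MCK-Musclin, while the cardiac members *Actc1*, *Myl2* and *Myl3* had no row in this table.

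*Myl1* stayed above the other fast genes in the iWAT libraries with the lowest fast muscle sums. In WT 1 and the library labelled MCK-Musclin 1 it stood at 33.6 and 31.1 FPKM, where *Acta1* was at 1.11 and 1.48 FPKM, *Mylpf* at 3.61 and 1.30 FPKM and *Tnnc2* at 1.96 and 3.09 FPKM. The ratio of *Myl1* to *Acta1* within a library was 30.2 in iWAT WT 1 and 21.1 in the library labelled MCK-Musclin 1, against 2.00 in WT 2, 0.866 in WT 3, 3.24 in MCK-Musclin 2 and 3.43 in MCK-Musclin 3. It was 0.530 in TA and between 0.771 and 1.37 in the 6 BAT libraries. A ratio within a library needs no scaling between tables. *Myl1* to *Tnnc2* ran likewise from 0.147 in iWAT WT 3 to 17.1 in iWAT WT 1, against 0.112 in TA.

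**Figure D5:**
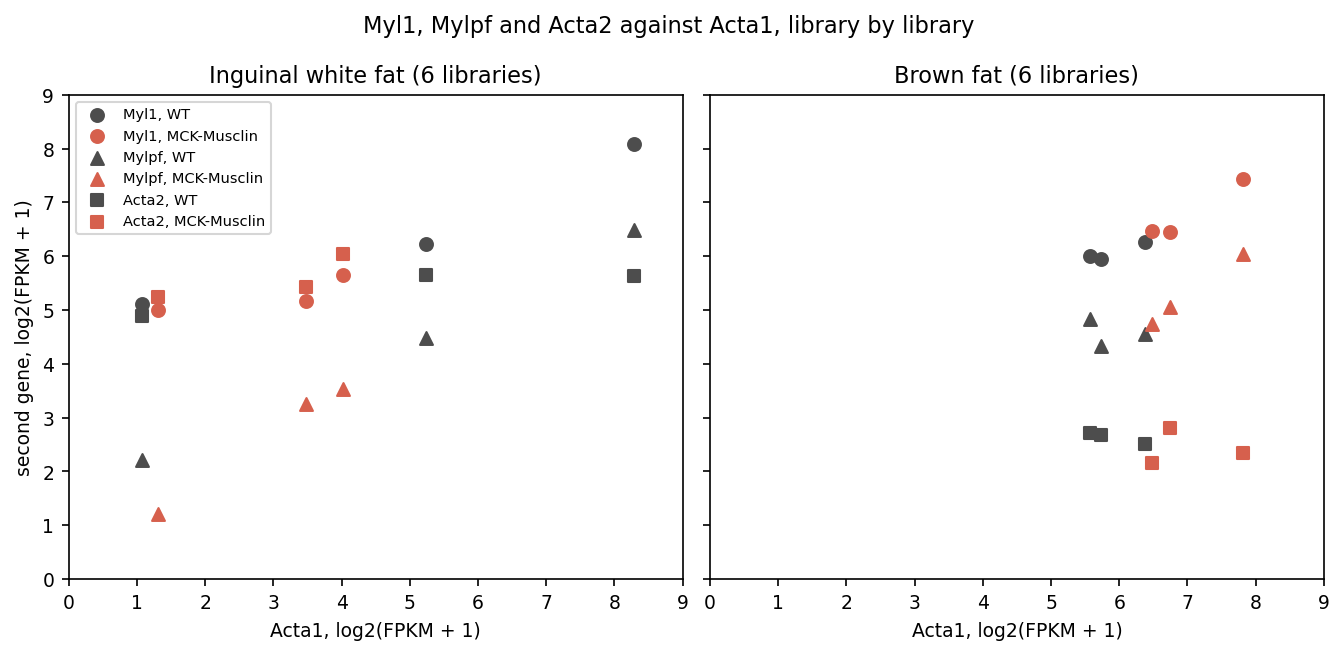
*Myl1* (circles), *Mylpf* (triangles) and *Acta2* (squares) against *Acta1*, both axes log2(FPKM + 1), for the 6 iWAT libraries (left) and the 6 BAT libraries (right), WT in grey and MCK-Musclin in orange-red. In iWAT *Myl1* levels off near 5 where *Acta1* is near 1, *Mylpf* falls to 1.20 and 2.20, and *Acta2* stays between 4.89 and 6.04.

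*Mylpf* kept closer to *Acta1*. The ratio of *Acta1* to *Mylpf* was 3.37 in TA, between 1.68 and 3.65 in BAT, and 3.53, 1.74, 1.45 and 1.20 in iWAT WT 3, WT 2, MCK-Musclin 2 and MCK-Musclin 3. It was 0.307 and 1.14 in iWAT WT 1 and the library labelled MCK-Musclin 1, where both genes were low. Over the 6 iWAT libraries Pearson's r of log2(FPKM + 1) was 0.98 for *Acta1* with *Mylpf*, 0.94 with *Myl1*, 0.62 with *Acta2* and 0.26 with *Myl4*. These points include both genotypes, and WT 3 is the far point in each skeletal pair. *Acta2* had an r of 0.93 with *Tagln* and 0.92 with *Myh11*, the smooth muscle heavy chain. *Myh11* also had an r of 0.86 with *Acta1* and 0.81 with *Mylpf*.

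Among 12197 genes in iWAT, those most like *Acta1* over the 6 libraries were *Sh3bgr* (0.9971), *Fut8* (0.9955) and the triadin gene *Trdn* (0.9951). *Mylpf* was most like *Tcim* (0.9902), *Ephb4* (0.9880) and *Sh3bgr* (0.9876). *Myl1* was most like the clock gene *Per2* (0.9967), *Kyat3* (0.9947) and the M-band gene *Myom1* (0.9924). *Acta2* was most like *Wdr19* (0.9940), the smooth muscle gene *Smtn* (0.9890) and *Plekhb2* (0.9868). *Actg2* was most like *Rsrc2* (0.9841), *Mycl* (0.9834) and *Dusp23* (0.9803), and *Myl4* was most like *Mcm8* (0.9902), *2610016A17Rik* (0.9890) and *Scrn2* (0.9887). With 6 points and this many genes, such values describe these libraries only.

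The transgene transcript was set beside *Acta1* within each library. The ratio of *Ostn* to *Acta1* was 0.17 in BAT MCK-Musclin 1, 0.359 in MCK-Musclin 2 and 0.288 in MCK-Musclin 3. In iWAT it was 0.341 in MCK-Musclin 2 and 0.412 in MCK-Musclin 3, and 0 in the library labelled MCK-Musclin 1, whose *Acta1* was at 1.48 FPKM. In WT TA it was 6.33e-04. The source of the *Ostn* reads in fat was not tested.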

How the data were processed

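Poly(A) RNA of mouse tissues was sequenced. The authors aligned reads without strand to mm10 with HISAT2 2.1.0 (Ensembl 90) and deposited FPKM values, made with StringTie per the study's methods. The submitters' processing notes also name Cuffdiff 2.1.137 and Bowtie2 2.4.1. White fat RNA came from a kit and other RNA from TRIzol, so extraction and tissue cannot be told apart. The iWAT table also holds the authors' fold changes, p-values, FDR and group means, which were not used. The 287 repeated lines of the other tables were used once.

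WT and MCK-Musclin were compared within each table with limma 3.58.1 (R 4.3.3, trended eBayes) on log2(FPKM + 1), keeping genes whose FPKM averaged 1 or more, with Benjamini-Hochberg adjustment and intervals of 95%. The cutoff was an unadjusted p under 0.05 with a log2 change beyond 0.5 (iWAT) or 0.3 (BAT). Nothing was tested across tables. p-values measure the spread between these libraries. Read depth is unknown, so no counting error is given. Alternatives were other scalings, pseudocounts, filters, a replicate block and leaving out each library.

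Members and lists were chosen with earlier results of these data known. Named were the members, at most 6 genes per list by mean FPKM, genes in counts of 5 or fewer, and the 3 genes most like each member. Other genes were chosen after their values were seen. The limma script was tested on simulated data. Python 3.11.15, numpy 2.4.6, pandas 2.3.3, scipy 1.17.1 and matplotlib 3.10.9 were used.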

Additional observations from a re-analysis of the deposited data

How the results depend on the processing

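Under other scalings, pseudocounts, filters and without the trend, 35 of 35 member values in iWAT and 38 of 38 in BAT kept their direction and their side of the cutoff. Leaving out single libraries moved the number of members past the cutoff between 0 and 3 in iWAT, against 0 with all libraries, and between 0 and 5 in BAT, against 2. The sign turned for *Acta2* in iWAT (-0.07 without WT 1, -0.05 without MCK-Musclin 2, range up to 0.35), for *Myl4* in iWAT (-0.17 without MCK-Musclin 2, range up to 0.45) and for *Myl4* in BAT (-0.14 without WT 1, -0.04 without WT 3, -0.20 without MCK-Musclin 2, range up to 0.28). The cause was not tested. With a mean FPKM of at least 5, 216 genes passed in BAT against 436, since fewer genes and 3 members were tested.

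With a replicate block, 1 member passed in iWAT (*Mylpf*, -1.73) and 4 in BAT, where *Mylpf* (0.70) and *Myl3* (0.67) joined *Acta1* and *Myl1*. Deviations of same-numbered libraries correlated at 0.23, 0.06 and 0.11 in iWAT and at -0.10, -0.00 and 0.01 in BAT. Libraries with unlike numbers correlated between -0.18 and 0.07 in iWAT and between -0.08 and 0.08 in BAT. In iWAT the same-numbered value was the highest for each WT library. Whether the numbers mark pairs or batches is not stated in the sources used here and was not tested. Without read totals, values near 0 FPKM cannot be told from absence.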

Other observations

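The pseudogene *Mylf-ps*, which shares 11.7% of the 50-base stretches of *Myl1*, was at 4.06 FPKM in TA and listed at 0 in the other 6 tissues. In BAT it was at 3.14, 4.97 and 4.82 FPKM in WT and at 9.94, 4.51 and 7.23 FPKM in MCK-Musclin. MCK-Musclin 1 was the highest library for it, as for *Myl1*, and the groups overlapped. *Mylf-ps* was not listed in iWAT, so its level there cannot be set beside that of *Myl1*.

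Cytoplasmic actin was described beside the muscle actins. *Actb* was at 397, 373 and 327 FPKM in iWAT WT and at 437, 529 and 470 FPKM in MCK-Musclin. The groups did not overlap, as in 23.3% of the 12197 genes tested in iWAT. The difference of 0.39 ± 0.12 (SE, limma adjusted p = 0.2) was under the size cutoff for iWAT. In BAT the *Actb* difference was 0.01 ± 0.08 (limma adjusted p = 0.996).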
